A study of Mus musculus with 24 samples.

Results

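The Smad genes and their feedback regulators were examined in ChIP-seq peak lists from cultured mouse fibroblasts with and without the homeobox transcription factor Prrx1. The 9 genes were Smad1, Smad2, Smad3, Smad4, Smad5, Smad6, Smad7, Ski and Skil, of 22359 protein-coding genes with a transcription start site (TSS) in the mm9 annotation. They were chosen by name, and the locus of each was the gene body with 10 kb on each side. The cells were mouse embryonic fibroblasts (MEF, labelled strain C57BL/6), cancer-associated fibroblasts taken from the breast tumours that MMTV-PyMT transgenic animals develop (MMTV-CAF, FVB/NJ), and fibroblasts grown out of day 10 skin wounds of the back (wound-healing, C57BL/6). Every culture had been immortalised with E6 and E7 of a papillomavirus. WT cells carried a control guide RNA where the study states one, SG cells had Prrx1 deleted with CRISPR/Cas9 and a guide RNA, and KI, present for MEF only, was read as the study's Prrx1 mutant, in which LacZ is inserted in the homeodomain, since the labels do not spell it out. The labels write this allele with a 129S prefix, and the study's methods call the line backcrossed to C57BL6. MEF came from embryos of day 10 to 13. Acetylation of histone H3 at lysine 27 (H3K27ac, a mark of active enhancers and promoters) and trimethylation at lysine 4 (H3K4me3, a mark of active promoters) were profiled in all 7 combinations and Prrx1 binding in the 3 WT cultures, which gave 17 lists, 1 per group. The MEF WT list was the control for both KI and SG, so these comparisons share it. With 1 list per group, the spread between cultures is unknown, no test was possible, and genes next to each other in any order given here cannot be told apart beyond that spread.

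In TGF-β signalling, activated receptors phosphorylate Smad2 and Smad3, and in BMP signalling they phosphorylate Smad1 and Smad5; both kinds of receptor-regulated Smad pair with Smad4 and enter the nucleus. Smad6 and Smad7 are inhibitory Smads that the pathway itself induces and that act back on the receptors and on Smad activation. Ski and Skil (SnoN) are corepressors that bind Smads on DNA and are themselves degraded or induced by the signal. In fibroblasts the pathway is best known for driving the myofibroblast state and matrix production, and the study asked whether Prrx1 works together with Smad3 in it.

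The receptor-regulated Smads of the TGF-β branch are Smad2 (ENSMUSG00000024563.9, chr18:76401234-76465385, plus strand) and Smad3 (ENSMUSG00000032402.6, chr9:63494574-63605801, minus). Those of the BMP branch are Smad1 (ENSMUSG00000031681.8, chr8:81862294-81923417, minus) and Smad5 (ENSMUSG00000021540.9, chr13:56804371-56843738, plus). The shared partner Smad4 (ENSMUSG00000024515.7) lies at chr18:73798663-73863434 (minus). The inhibitory Smads are Smad6 (ENSMUSG00000036867.5, chr9:63800953-63869866, minus) and Smad7 (ENSMUSG00000025880.5, chr18:75527183-75555589, plus). The corepressors are Ski (ENSMUSG00000029050.8, chr4:154528184-154596701, minus) and Skil (ENSMUSG00000027660.9, chr3:30993980-31021499, plus). Smad3 and Smad6 lie 195 kb apart on the same chromosome. The loci spanned 47.5 kb (Skil) to 131 kb (Smad3), and none held the TSS of another protein-coding gene.

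The lists differed in size and strength, and the depth behind them is unknown. They held 29325 (MEF KI) to 61603 (MMTV-CAF SG) H3K27ac summits, 13125 (MEF KI) to 29166 (MMTV-CAF SG) H3K4me3 regions, and 3048 to 8000 Prrx1 summits. The MEF KI lists were the shortest for both histone marks, and the H3K27ac summits of MEF KI were the weakest, with a median −log10 p of 11.9 against 15.2 to 21.2 in the other 6. Of 12 fibroblast marker genes, 8 (MEF KI) to 12 (MEF WT) had an H3K4me3 region over a TSS, and their summed width ran from 25254 bp (MEF KI) to 113023 bp (MMTV-CAF WT). Of 6 epithelial markers 0 or 1 had one, of 5 leukocyte markers 0 in every list, and of 4 endothelial markers 0 or 1. The gene Prrx1 itself kept an H3K4me3 region of 4558 to 15484 bp and 12 to 27 H3K27ac summits in all 7 cultures, so these marks do not check the loss of Prrx1.

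Smad7 carried the widest H3K4me3 promoter region of the 9 genes in each WT list. The widest region over a TSS of Smad7 spanned 7891 bp (MEF WT), 20400 bp (MMTV-CAF WT) and 13998 bp (wound-healing WT), which placed Smad7 between percentiles 99.8 and 99.97 of all protein-coding genes. In MMTV-CAF WT it ran from position -5193 to 15206 bp relative to the outermost TSS. The region at Smad6 spanned 6670, 7011 and 5973 bp in the same 3 WT lists, at percentiles 97.4 to 99.5. Ski carried 4781, 7417 and 5078 bp and Skil 5517, 5826 and 3291 bp. All 4 of these genes were thus above 4 kb in each WT list, except Skil in wound-healing WT.

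Among the signal transducers Smad3 stood highest in the WT lists. Its region spanned 4097 bp (MEF WT), 6414 bp (MMTV-CAF WT) and 5316 bp (wound-healing WT), at percentiles 95.4 to 98.6, and was wider than that of Skil in MMTV-CAF WT and than those of Ski and Skil in wound-healing WT. Smad2, its partner in the TGF-β branch, had 2839, 5328 and 2855 bp. Smad4 had 3930, 4584 and 3151 bp. The BMP-branch Smads were narrower, with 2390, 2523 and 2399 bp at Smad1 and 2701, 3492 and 2051 bp at Smad5. Smad1 thus lay at percentiles 66.6 to 79.2 and its width differed little between the types, whereas Smad2 was near 2.8 kb in 2 types and 5.3 kb in MMTV-CAF WT.

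A region over 4 kb at a TSS was found for 5 of the 9 genes in MEF WT, where 4.97% of all protein-coding genes had one. The 5 were Smad3, Smad6, Smad7, Ski and Skil. In MMTV-CAF WT it was 7 of 9, all but Smad1 and Smad5, against 15.0% of all genes, and in wound-healing WT 4 of 9, without Skil, against 4.78%. In the KI and SG lists the counts were 1 of 9 in MEF KI (Smad7, background 1.48%), 2 of 9 in MEF SG (Smad6 and Smad7, 3.56%), 5 of 9 in MMTV-CAF SG (12.7%) and 5 of 9 in wound-healing SG (8.51%). The last 2 lists shared the same 5 genes with MEF WT. The background itself moved with the lists, since MMTV-CAF lists held the widest TSS regions (median 3044 bp in WT) and MEF KI the narrowest (1863 bp).

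**Figure D1:**
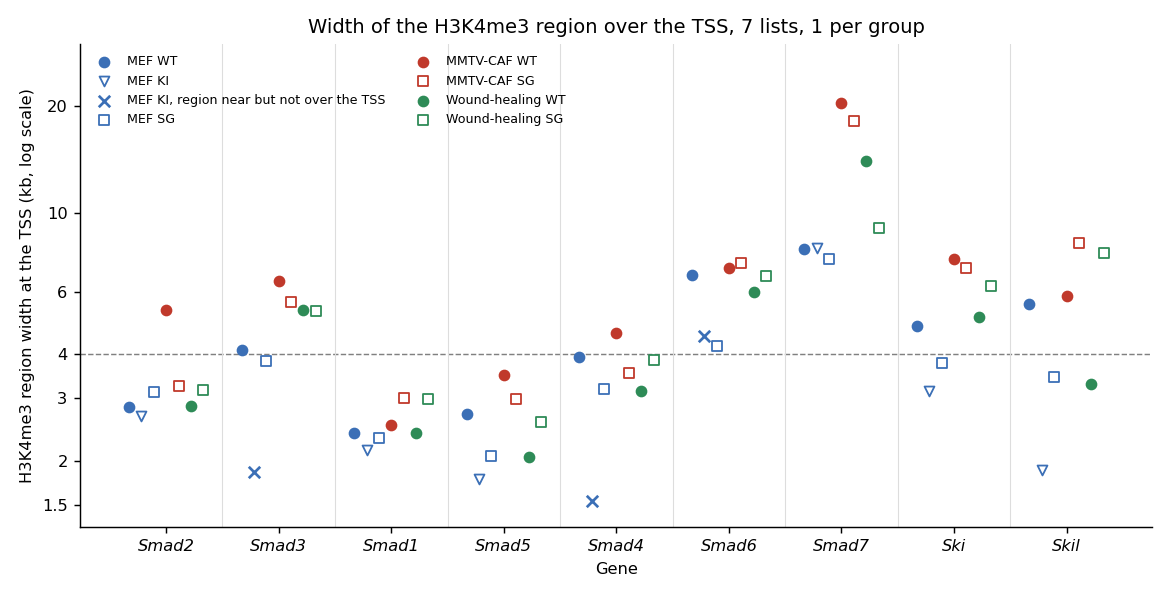
Width of the H3K4me3 region over a TSS (kb, log scale) for each of the 9 genes in each of the 7 lists; filled symbols are WT, open symbols KI or SG, and crosses mark MEF KI genes whose nearest region lies beside the TSSs and not over any of them. Smad7 reaches 20.4 kb in MMTV-CAF WT, and the dashed line marks 4 kb.

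The enrichment of these regions over input varied less between the genes than their width. In MEF WT the fold ran from 4.65 (Smad6) to 6.51 (Smad2), in MMTV-CAF WT from 7.95 (Smad5) to 11.3 (Smad1) and in wound-healing WT from 6.13 (Smad5) to 9.25 (Ski). Smad1, with the narrowest region in MEF WT and MMTV-CAF WT, therefore had the highest fold in MMTV-CAF WT, and the wide region of Smad7 had 6.28-, 9.61- and 7.45-fold. In MEF KI the 6 genes with a region over a TSS had 2.67- to 4.98-fold, where the median of all genes was 3.77 against 5.62 in MEF WT. In the SG lists Smad3 had 5.79-fold (MEF), 14.3-fold (MMTV-CAF) and 9.68-fold (wound-healing) against 5.13, 11.0 and 8.11 in WT. That was 1.13, 1.31 and 1.19 times the WT value, beside medians over all genes of 1.06, 1.11 and 1.13.

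In MEF KI no region lay over a TSS of Smad3, Smad4 or Smad6, 3 of the 9 genes that all had one in MEF WT, where 25.3% of all such genes had none. The mark was nevertheless listed on both sides of the start. At Smad3 a region of 1852 bp began 49 bp into the gene and one of 379 bp ended 363 bp before it, leaving a gap of 411 bp over the TSS. At Smad4 the pieces were 1539 and 785 bp with a gap of 615 bp, and at Smad6 4499 and 516 bp with a gap of 463 bp. Such splitting was common in this list: of the 2969 genes with no region over a TSS, 69.3% had one within 1 kb. Smad5, Ski and Skil had a region over another annotated TSS, but it began 40, 44 and 6 bp inside the outermost one. Within 5 kb of the outermost TSS, H3K4me3 covered 2627 bp at Smad3 in MEF KI against 4097 bp in MEF WT, 2324 against 3930 bp at Smad4 and 5015 against 6416 bp at Smad6. Over all genes the median ratio of covered bases, MEF KI to MEF WT, was 0.765. In the SG lists all 9 genes had a region over a TSS, where 4.31% (MEF), 2.6% (MMTV-CAF) and 2.49% (wound-healing) of all genes with one in WT had none.

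H3K27ac divided the genes more sharply than H3K4me3 did. Smad3, Smad7, Ski and Smad6 carried summits along the gene, whereas Smad2, Smad4 and Smad5 had 1 to 3 summits in each list and all of these lay within 2.5 kb of a TSS of the gene. Smad3 held 27 summits (MEF WT), 36 (MMTV-CAF WT) and 38 (wound-healing WT), of which 24, 30 and 35 lay farther than 2.5 kb from its TSSs. Smad7 held 13, 17 and 19, Ski 12, 17 and 21, and Smad6 10, 15 and 6. Per 100 kb of locus, Smad7 was denser than Smad3 in these lists, with 26.9, 35.1 and 39.3 summits against 20.6, 27.4 and 29.0. Smad1 and Skil stayed at 1 to 5 summits with at most 3 of them distal.

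Summed −log10 p over the locus (the summed score, which grows with the length of the locus and with the strength of the list) gave the same 4 genes at the top in the WT lists. Smad3 reached 507 (MEF WT), 802 (MMTV-CAF WT) and 523 (wound-healing WT), at percentiles 99.7 to 99.9 of all genes. Smad7 reached 459, 628 and 362, at percentiles 99.5 to 99.7, and Ski 371, 404 and 365. Smad6 reached 245 and 320 in MEF WT and MMTV-CAF WT, at percentiles 96.8 and 97.2, but 93.9 in wound-healing WT, at percentile 87.1. Skil lay at percentiles 82.6 to 85.8 in the WT lists with 125, 149 and 88.9. Smad1, Smad2, Smad4 and Smad5 summed to 24.4 to 103 in the WT lists, at percentiles 52.3 to 77.8.

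**Figure D2:**
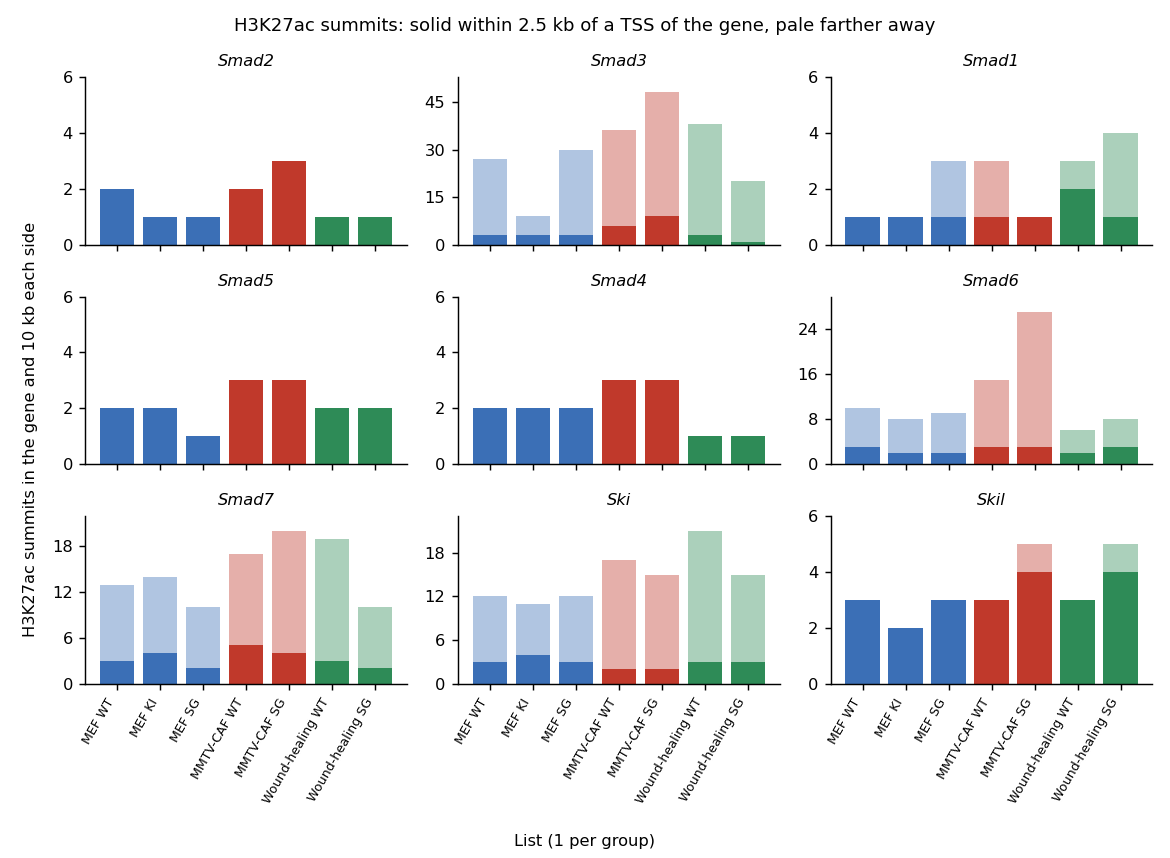
Number of H3K27ac summits in each gene with 10 kb on each side, in the 7 lists; the solid part of a bar counts summits within 2.5 kb of a TSS of the gene and the pale part those farther away. Smad3 holds 9 summits in MEF KI and 48 in MMTV-CAF SG, and the panels have separate vertical scales.

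Summits within 12.5 kb of each other were joined into clusters and ranked by summed score within each list. A cluster was assigned to a gene if it overlapped its locus. Its span, summits and rank therefore include summits beyond the locus. The leading Smad7 cluster spanned 27.7 to 29.0 kb and ranked between 66 and 114 in all 7 lists, of 13518 to 19061 clusters. The leading Ski cluster lay at the 3′ end of the gene and beyond it in MEF WT (chr4:154501141-154529105, rank 309). In the other 6 lists it was one over the promoter, which ranked between 182 and 660. The leading Smad3 cluster was not the same in all lists. In MEF WT it lay at chr9:63545968-63574343 (14 summits, rank 498), and nearer to the 3′ end of the gene in MMTV-CAF WT (chr9:63503317-63527436, 13 summits, rank 494) and wound-healing WT (chr9:63498855-63527365, 17 summits, rank 241). In MMTV-CAF SG 1 cluster of 38 summits over 74.9 kb overlapped both positions and ranked 41 of 19061. The leading Smad6 cluster of MMTV-CAF WT, with 6 summits and rank 1262, lay past the 3′ end of the gene (chr9:63775444-63791272), mostly outside the locus. That of MMTV-CAF SG, the list with the most summits, held 22 summits inside the gene (chr9:63803862-63849890) and ranked 363, so these were different clusters.

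In MEF KI, compared with MEF WT, the summed H3K27ac score of all 9 genes was lower by 1.5-fold or more, as it was for 90.7% of all genes with a summit in both lists (1.3% were higher). Smad1 had the lowest ratio to WT, 0.131 (8.19 against 62.6, and 0.267 with flanks of 50 kb), and Smad7 the highest, 0.479 (220 against 459), around a median of 0.312 over all genes. Smad3 went from 507 to 122, a ratio of 0.240, with 9 summits in place of 27. Of its summits within 2.5 kb of a TSS 3 were listed in each, so the difference in number lay among the distal ones, 24 against 6. Smad7 kept its number, with 14 summits against 13.

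In MEF SG, compared with the same WT list, the scores went the other way for most genes: 42.6% of all genes were higher by 1.5-fold or more and 4.11% lower, with a median ratio of 1.41. Of the 9 genes 1 passed each way. Smad1 stood at 141 against 62.6, a ratio of 2.26, which 2 further summits in the gene, 20.5 and 18.8 strong, and a stronger promoter summit (102 against 62.6) made up. Smad5 stood at 41.1 against 63.6, a ratio of 0.646, with 1 summit in place of 2. With flanks of 50 kb Smad5 was at 0.853, no longer past 1.5-fold, and Smad4 was past it (1.66 in place of 1.44). Smad3 had 706 against 507 and 30 summits against 27, a ratio of 1.39 that was close to the median of all genes. Smad6 stood at 242 against 245, a ratio of 0.987.

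In MMTV-CAF SG, 26.4% of all genes were higher and 7.42% lower, with a median ratio of 1.18, and 1 of the 9 genes was higher and 0 lower. The gene was Smad6, with 702 against 320, a ratio of 2.19 at percentile 91.0 of all genes, and 27 summits against 15, of which 24 against 12 were distal. Smad3 had 1156 against 802 (1.44) and 48 summits against 36. With flanks of 50 kb Smad3 (1.58) and Skil (1.69 in place of 1.36) were past 1.5-fold as well. Smad4 had 59.6 against 79.7, a ratio of 0.748, with 3 summits in each, and without the flanks the ratio was 1.14.

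In wound-healing SG, 50.3% of all genes were higher and 2.68% lower, with a median ratio of 1.503. Of the 9 genes 3 were higher: Smad4 (53.5 against 24.4, 2.19), Skil (177 against 88.9, 1.99) and Smad1 (94.2 against 62.2, 1.51). With flanks of 50 kb Smad1 was no longer past 1.5-fold (1.42), Smad2 was (2.16 in place of 1.20), and Smad4 was at 4.36. Smad3 had 465 against 523, a ratio of 0.888 at percentile 8.82 of all genes, and the other 8 genes were above their WT scores. With summits of a −log10 p of at least 10 alone the Smad3 ratio was 1.096, and without the flanks that of Smad7 was 0.775, so these directions depend on the setting. It held 20 summits against 38, and its strongest summit was 78.2 against 35.6. Smad7 and Ski likewise had fewer summits, 10 against 19 and 15 against 21, with a strongest summit of 102 against 52.9 and 78.3 against 44.1. At all 3 genes the SG list thus held fewer and stronger summits than the WT list, although the whole list was longer, 43058 against 33465.

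These directions depend on the scale, because the median ratio moved by list. Divided by the median ratio of all genes, 23.2% of genes were lower and 22.9% higher in MEF KI, and of the 9 genes Smad1 was lower (0.419) and Smad7 higher (1.53). In MEF SG the split was 14.3% and 13.4%, with Smad5 lower (0.458) and Smad1 higher (1.60). In MMTV-CAF SG it was 13.8% and 16.2%, with Smad4 lower with its flanks (0.633) and Smad6 higher (1.86), and in wound-healing SG 14% and 15.4%, with Smad3 lower (0.591) and none of the 9 higher. In MEF KI the direction turned for Smad2, Smad5, Smad6, Smad7 and Skil, which lay above the median ratio. It also turned, from above 1 to below, for Smad2, Smad3, Smad7, Ski and Skil in MEF SG (0.892 to 0.992 after division), for Ski in MMTV-CAF SG (0.860) and for Smad2, Smad5, Smad6, Smad7 and Ski in wound-healing SG (0.751 to 0.941). Smad6 was thus below its WT score in MEF KI on the plain scale and above the median gene on the other.

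**Figure D3:**
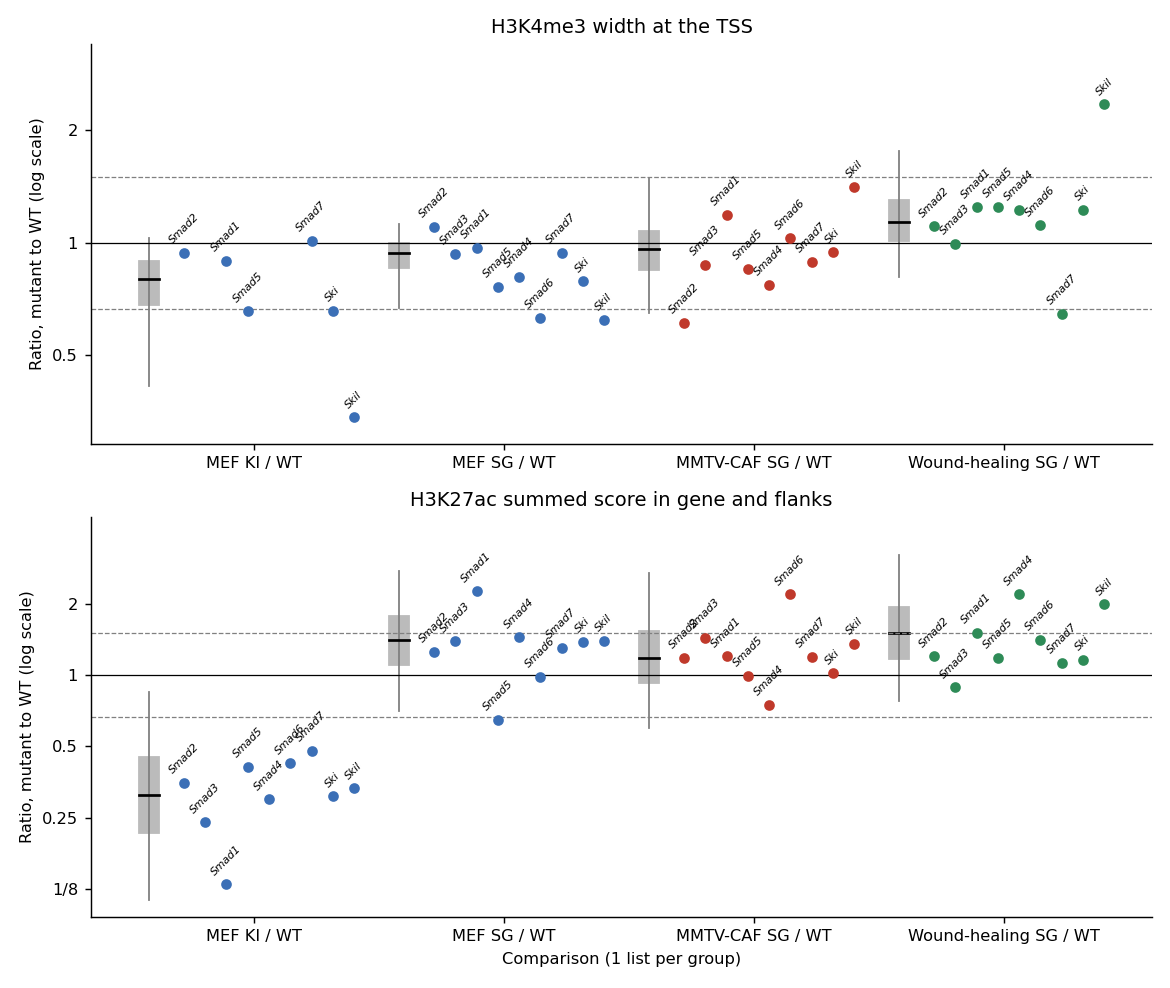
Ratio of each gene's value in the KI or SG list to its WT list (log scale), for the H3K4me3 width at the TSS (upper panel) and the summed H3K27ac score (lower panel); grey boxes, black bars and whiskers give the quartiles, median and 5% to 95% range of all genes, and dashed lines mark 1.5-fold. Smad3, Smad4 and Smad6 have no width ratio in MEF KI, and Skil lies lowest in MEF KI and highest in wound-healing SG among the width ratios.

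For the H3K4me3 width at the TSS, 23.5% of genes were narrower by 1.5-fold or more in MEF KI and 0.525% wider, and of the 6 genes here with a ratio 3 were narrower and 0 wider. These were Skil (1885 against 5517 bp, 0.342), Ski (3146 against 4781 bp, 0.658) and Smad5 (1771 against 2701 bp, 0.656). As its mark was split into pieces, Skil was at 0.556 by bases covered within 5 kb, beside a median of 0.765 over all genes. In MEF SG 2 of 9 were narrower, Skil (3435 against 5517 bp, 0.623) and Smad6 (4203 against 6670 bp, 0.630), where 4.88% of all genes were narrower and 0.596% wider. At Smad6 in MEF SG a further piece of H3K4me3 lay beside the region, and the bases covered within 5 kb were 5515 against 6416. The median ratio of covered bases over all genes was 0.933 in MEF SG. Smad7 held its width in both MEF comparisons, with 7969 and 7400 against 7891 bp.

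In MMTV-CAF SG the 1 gene past 1.5-fold was Smad2 (3251 against 5328 bp, 0.610), where 5.82% of all genes were narrower and 4.87% wider. In wound-healing SG, where 11.4% of all genes were wider and 1.67% narrower, Skil was wider (7706 against 3291 bp, 2.34) and Smad7 narrower (9046 against 13998 bp, 0.646). The Skil value rested on how pieces were joined, because in wound-healing WT 2 further regions of 1609 and 489 bp followed the first within 5 kb. The bases covered there were 5389 in WT and 6833 in SG, a ratio of 1.27 beside a median of 1.14 over all genes. The narrower Smad7 region in wound-healing SG ended 7701 bp into the gene against 12738 bp in WT, and a further region followed it from 8.24 to 12.4 kb, while the bases covered within 5 kb of its TSS were 8449 against 6468. Divided by the median ratio of all genes, Skil stayed past 1.5-fold in MEF KI (0.426) and wound-healing SG (2.07), Smad7 in wound-healing SG (0.571), Smad2 in MMTV-CAF SG (0.634) and Skil in MEF SG (0.664), while Ski, Smad5 and the MEF SG value of Smad6 did not. Smad3 was close to its WT width in all SG lists, with ratios of 0.935, 0.874 and 0.991.

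Individual acetylation sites of these loci were kept about as often as those of the whole list in 2 of the 4 comparisons. Of the 72 MEF WT summits in the 9 loci, 45.8% were kept in MEF KI, that is, had a summit no more than 500 bp away (Wilson 95% interval 34.8 to 57.3) against 44.3% of all MEF WT summits, and 69.4% were kept in MEF SG (58.0 to 78.9) against 68.2%. When the longer list was trimmed to the strongest 29325 summits, the length of the KI list, the KI share was 72.7% of 44, against 58.4% of all. In MMTV-CAF SG 72.7% of 99 were kept (63.2 to 80.5) against 63.9%. In wound-healing SG 54.3% of 94 were kept (44.2 to 64.0) against 67.7%. The intervals cover counting error over summits only, and summits of 1 locus share their list. Smad3 gave the lowest share in MEF KI among the genes with over 5 summits, 6 of 27. In wound-healing SG it kept 17 of 38, and Smad7 had the lowest share among such genes, 8 of 19. Smad3 kept 20 of 27 in MEF SG and 29 of 36 in MMTV-CAF SG.

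Kept shares were also taken separately for promoter and distal summits, and their order was not the same in all comparisons. In MEF KI 72.7% of 22 summits within 2.5 kb of a TSS were kept (51.8 to 86.8) and 34.0% of 50 farther ones (22.4 to 47.8), where the whole list gave 59.6% and 35.1%. In wound-healing SG the shares were 85.0% of 20 (64.0 to 94.8) and 45.9% of 74 (35.1 to 57.2), against 74.0% and 61.6% of the whole list. The distal share was the higher one in MMTV-CAF SG, 74.6% of 71 (63.4 to 83.3) against 67.9% of 28 (49.3 to 82.1), while the whole list had 56.7% distal and 78.5% near a TSS. In MEF SG the shares were 77.3% of 22 (56.6 to 89.9) near a TSS and 66.0% of 50 (52.2 to 77.6) farther, against 80.5% and 60.8%. Of the 27 Smad3 summits of MEF WT, 5 had a summit within 500 bp in all 6 other lists, as did 5 of the 13 at Smad7 and 5 of the 12 at Ski. The share of all MEF WT summits that did so is not given here.

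**Figure D4:**
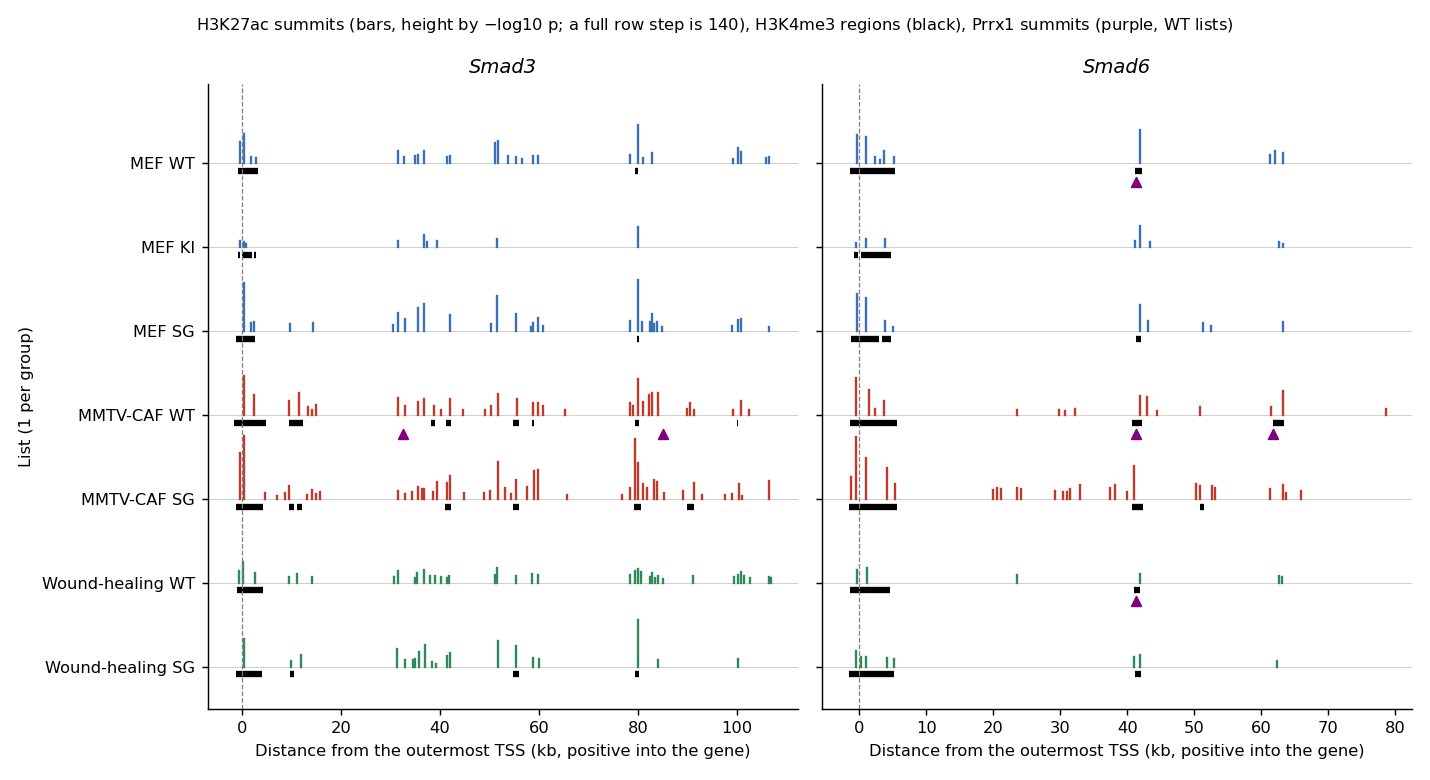
Maps of Smad3 and Smad6 by distance from the outermost TSS (kb) in the 7 lists; coloured bars are H3K27ac summits with height by −log10 p, black blocks H3K4me3 regions and purple triangles Prrx1 summits of the WT lists. The Prrx1 summits near 41.2 kb in Smad6 recur in all 3 WT lists, and 24 distal Smad3 summits in MEF WT stand against 6 in MEF KI.

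Prrx1 bound 1 site in Smad6 in all 3 fibroblast types. It lies in an intron of Smad6, about 41.2 kb from the TSS, and its summits fell within 35 bp of each other, with a −log10 p of 11.7 (MEF), 14.04 (MMTV-CAF) and 4.58 (wound-healing). The wound-healing value is below the 5 that the stated peak cutoff gives, as are 22.0% of that list. In MEF it was the 1 Prrx1 summit in all 9 loci. The summit lay inside a short H3K4me3 region of 1029 bp (MEF WT), 1494 bp (MMTV-CAF WT) and 904 bp (wound-healing WT), and the nearest H3K27ac summit was 691, 693 and 628 bp away. Within 500 bp of the MEF summit an H3K4me3 region was also listed in all 3 SG lists (701, 1591 and 834 bp) and not in MEF KI. Counted in genome coordinates from that position, the nearest H3K27ac summit lay at 157 bp in MEF KI (−log10 p 9.78), at 210 bp in MMTV-CAF SG (55.8), at 193 bp in wound-healing SG (16.1) and at -689 bp in MEF SG (43.9). The 136 bases that cover the 3 summits with 50 bases on each side are given because they hold the site shared by all 3 types, on the plus strand of mm9 (chr9:63828536-63828671), with the homeodomain core letters TAAT and their complement ATTA in capitals.
Smad6 shared site: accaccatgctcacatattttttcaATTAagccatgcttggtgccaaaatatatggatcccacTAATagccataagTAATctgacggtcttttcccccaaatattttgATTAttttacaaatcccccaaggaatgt
The window held TAAT 2 times and ATTA 2 times, and no TAATTA, the palindromic pair of cores.

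Smad3 held Prrx1 summits in MMTV-CAF only, 2 of them, at −log10 p of 7.61 and 6.24. Both were intronic, 85.0 and 32.5 kb into the gene, and 373 bp separated the second from an H3K27ac summit, 1025 bp the first. Neither lay in an H3K4me3 region. Their windows are shown because each holds TAATTA, printed within the capitals of the same letters (plus strand of mm9, chr9:63520726-63520826 and chr9:63573234-63573334), 101 bases centred on the summit.
Smad3 site 1: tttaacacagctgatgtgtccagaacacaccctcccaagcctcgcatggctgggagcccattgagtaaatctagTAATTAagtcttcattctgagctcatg
Smad3 site 2: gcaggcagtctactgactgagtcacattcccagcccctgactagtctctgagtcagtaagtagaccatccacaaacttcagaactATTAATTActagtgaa
A second Smad6 site, 61.8 kb into the gene and in MMTV-CAF only (−log10 p 7.82), lay 425 bp from an H3K27ac summit and inside an H3K4me3 region of 1656 bp.

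Smad1 held 4 summits, 3 of them in wound-healing fibroblasts, the other in MMTV-CAF. One of the wound-healing summits lay 122 bp upstream of the TSS (−log10 p 7.19), 322 bp from an H3K27ac summit and within the promoter's H3K4me3 region of 2399 bp. Another lay 1559 bp into the gene in the same region (3.79) and its window, on the plus strand of mm9 at chr8:81921808-81921908, is shown for its TAATTA, with TAAT and ATTA in capitals.
Smad1 intron site: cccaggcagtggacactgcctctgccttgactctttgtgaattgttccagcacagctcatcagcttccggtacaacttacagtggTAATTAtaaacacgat
The window of the promoter summit held neither TAAT nor ATTA.

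Over all loci the 3 lists gave 1 (MEF), 8 (MMTV-CAF) and 7 (wound-healing) Prrx1 summits, 14 of the 16 in introns. The intron share of the whole lists is not given here. Summits of different lists were counted separately, so the shared Smad6 site enters the 16 in all 3 lists. At least 1 summit was found for 1 of 9 genes in MEF, where 7.04% of all genes had one, for 5 of 9 in MMTV-CAF (22.1%) and for 4 of 9 in wound-healing fibroblasts (16.8%). Per 100 kb the 9 loci held 0.140, 1.12 and 0.980 summits, against 0.135, 0.449 and 0.313 over all protein-coding loci. Smad7 held 2 summits in each of MMTV-CAF and wound-healing fibroblasts. One pair, 6253 and 6138 bp into Smad7, lay within 500 bp of each other and inside its wide H3K4me3 region. Smad2 held 1 in MMTV-CAF (4.64) and Skil 1 in wound-healing fibroblasts (6.32), 10 bp from one of its TSSs. None were listed at Smad4, Smad5 or Ski. Of the 16 summits, 2 reached a −log10 p of 10, both at the shared Smad6 site. With every list trimmed to its 3048 strongest summits the loci held 1, 3 and 3.

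**Figure D5:**
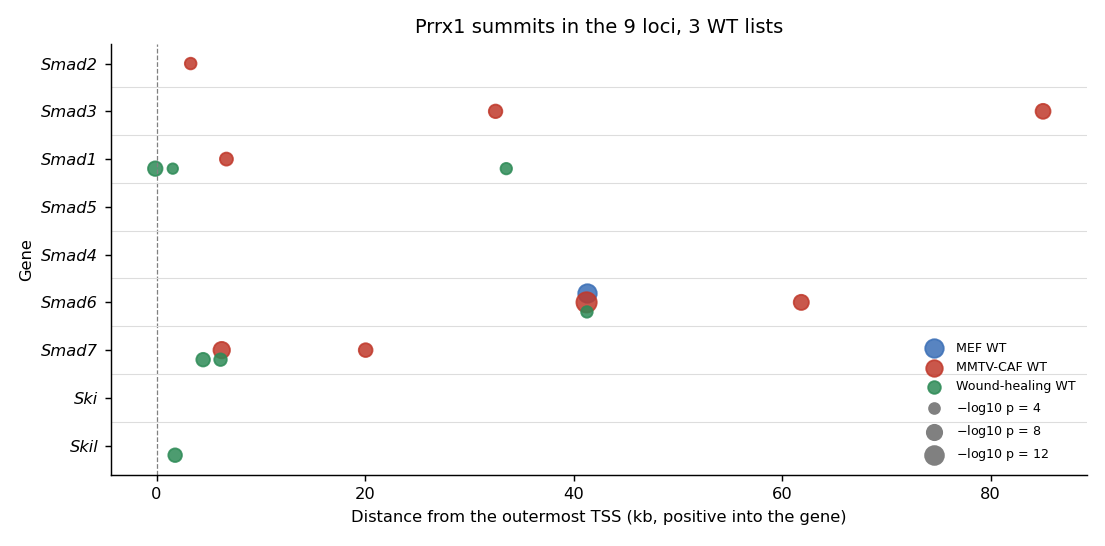
Prrx1 summits of the 3 WT lists in the 9 loci by distance from the outermost TSS (kb, positive into the gene), with circle area by −log10 p. The Smad6 summits of all 3 types overlap near 41.2 kb, and no summit is drawn at Smad4, Smad5 or Ski.

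TAATTA was present within 50 bp of 5 of the 16 summits, and TAAT or ATTA of 14. These windows are not all separate, since those of the shared Smad6 site overlap and enter from all 3 lists. In the whole lists TAATTA was present at 57.3% (MEF), 25.3% (MMTV-CAF) and 31.7% (wound-healing) of summits and at 2.86% to 3.49% of windows of the same length 2 kb to either side. TAAT or ATTA, which TAATTA contains, was present at 68.3% to 85.8% of summits and 46.1% to 51.7% of the windows 2 kb away. The Smad-binding letters CAGAC or their complement GTCTG were in 1 of the 16 windows, at Smad7 in MMTV-CAF, against 18.8% to 21.4% of all summit windows and 18.8% to 20.4% of those 2 kb away. The longer GTCTAGAC was in none of the 16 and in at most 0.105% of the windows of any list or of those 2 kb away. All letters were sought on both strands.

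An H3K27ac summit lay within 500 bp of 0 of 1, 3 of 8 and 2 of 7 Prrx1 summits in MEF, MMTV-CAF and wound-healing fibroblasts, where the whole lists gave 20.5%, 45.4% and 33.2%. The 5 were 1 each at Smad3, Smad6 and Smad7 in MMTV-CAF and at Smad1 and Smad7 in wound-healing fibroblasts. An H3K4me3 region covered 11 of the 16. The same share of the whole lists is not given here, so this count has no background to be read against. No Prrx1 list of SG or KI cells was analysed here, and the antibody was thus not checked at these sites.

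Among 24 other genes of the pathway, 7 had an H3K4me3 region over 4 kb in MEF WT (4.97% of all genes), 16 did so for MMTV-CAF WT (15.0%), and 7 for wound-healing WT (4.78%). Tgif1, a homeobox corepressor of Smads, was the widest in MEF WT and wound-healing WT, with 8270, 10809 and 7301 bp in the 3 WT lists. Pmepa1, a membrane inhibitor of Smad activation, was the widest in MMTV-CAF WT, with 17147 bp against 4004 bp in MEF WT and 7107 bp in wound-healing WT. In MMTV-CAF SG Pmepa1 had 5113 bp. Prrx1 summits were found at 3, 12 and 10 of the 24 genes in MEF, MMTV-CAF and wound-healing fibroblasts, beside 7.04%, 22.1% and 16.8% of all genes. Tgfbr3, the coreceptor betaglycan, held the most, 14 in MMTV-CAF, 3 in wound-healing fibroblasts and 1 in MEF. In MEF KI 20 of 21 of these genes had a summed H3K27ac score lower by 1.5-fold or more and 0 higher, and 7 of 23 had no region over a TSS, near the 90.7% and 25.3% of all genes. In the SG lists 4 were higher and 0 lower of 23 with a ratio in MEF, 6 and 1 of 24 in MMTV-CAF, and 7 and 2 of 23 for wound-healing. The shares of all genes were 42.6% higher and 4.11% lower for MEF SG, 26.4% and 7.42% for MMTV-CAF SG, with 50.3% and 2.68% for wound-healing SG.

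The pattern of Smad3 over the 7 widths and 7 summed scores was most like those of Ehd1, Rbfox2 and Adam9, at a distance of 4.79, 5.09 and 6.03 percentile points over the 14 values. Among the 9 genes Smad6 was nearest to it, at 21.1, then Skil (63.1), Ski (65.5) and Smad7 (70.3), and Smad2 was farthest (134). The lack of a MEF KI region over any annotated TSS, which Smad3, Smad4 and Smad6 have in common, enters this distance.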

How the data were processed

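Per the study's methods, the authors trimmed reads (Trimmomatic), mapped them to mm9 (Bowtie), dropped duplicates (Picard) and ran MACS2 with the input as control. The deposited summit lists (H3K27ac, Prrx1) give a position of 1 bp and its −log10 p. The deposited H3K4me3 lists give broad regions, each with its fold over input (a ratio) and −log10 p; their q column was not used. Prrx1 ChIP is described as duplicated, and pooling is not stated. Depth is unknown. The lowest −log10 p was 5.0 for H3K27ac but 3.0 for Prrx1, under the stated cutoff.

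Genes came from GENCODE vM1 and sequences from NCBIM37, the same build as mm9, with 1-based coordinates. A gene's width was that of the widest H3K4me3 region covering a TSS of a protein-coding transcript. Summits were counted over the gene with 10 kb on each side, and ratios needed a value in both lists. Percentiles are over all 22359 genes. The counting was tested on simulated data. The 9 genes, and the lists of pathway and marker genes, were chosen with earlier results of these data known. Among pathway genes, those with the widest WT regions or most Prrx1 summits are named. Groups came from sample titles. Inputs were not analysed here. Tools were scipy 1.17.1, pysam 0.24.0, pandas 2.3.3, numpy 2.4.6 and Python 3.11.15.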

Additional observations from a re-analysis of the deposited data

Results flagged for a closer look

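The H3K4me3 width at the TSS of Skil went past 1.5-fold one way in both MEF comparisons and the other way in wound-healing SG. No other width or summed H3K27ac score of the 9 genes did so with both MEF comparisons on the same side; the scores of Smad1, Smad4 and Skil were lower in MEF KI and higher in wound-healing SG, but not lower by 1.5-fold in MEF SG. The ratio to WT was 0.342 in MEF KI and 0.623 in MEF SG, which share the MEF WT list, and 2.34 in wound-healing SG. The difference between the types was not tested, since each group has 1 list. Counted as bases covered within 5 kb of the TSS, the ratios were 0.556, 0.586 and 1.27. The medians of this ratio over all genes were 0.765, 0.933 and 1.14, so the wound-healing value lay near that of the typical gene.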

How the results depend on the processing

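Each list was 1 library of unknown depth, so no difference was set against a spread between cultures. No paired analysis was possible because every group has 1 list and the results come from no test. Of the 168 counts and shares recomputed, 127 stayed within 1.5 times the count or within the counting interval of the share, and the other 41 follow. Dividing by the median ratio removes a shift of the whole list, and equal lists drop weak summits; for the rest the cause was not tested.

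With the widest H3K4me3 region within 1 kb of a TSS in place of one over it, an alternative chosen after seeing the data, as were the covered bases and the −log10 p of 5, 2 genes in MEF KI were over 4 kb and 5 were narrower. By bases covered within 5 kb, the narrower genes numbered 5 in MEF KI and 1 in MEF SG, while 0 were narrower and 0 wider in wound-healing SG. Divided by the median ratio, 1 was narrower in MEF KI and 1 in MEF SG.

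For the summed H3K27ac score, division by the median ratio gave 1 lower and 1 higher in MEF KI, 1 lower in MMTV-CAF SG, while wound-healing SG had 1 lower and 0 higher. By number of summits it was 3 lower in MEF KI, 2 lower in MEF SG, 1 lower and 3 higher in MMTV-CAF SG, with 2 lower and 1 higher in wound-healing SG. With flanks of 50 kb it was 0 lower and 2 higher in MEF SG and 3 higher in MMTV-CAF SG.

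Kept WT summits came to 58.3% (MEF KI) and 84.7% (MEF SG) within 1 kb, with 87.9% for MMTV-CAF SG and 70.2% for wound-healing SG. Within 250 bp these last came to 59.6% and 42.6%. With lists of equal size 72.7% of 44 were kept in MEF KI. The wound-healing share was below that of the whole list at each distance (57.2% within 250 bp, 83.9% within 1 kb).

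Prrx1 summits in the loci numbered 2 (MEF) and 11 (wound-healing) with flanks of 50 kb, 1 (MMTV-CAF) and 0 (wound-healing) at a −log10 p of at least 10, 3 each in MMTV-CAF and wound-healing with lists of equal size, and 4 in wound-healing at 5 or more. Within 1 kb, 1 in MEF and 6 in wound-healing had an H3K27ac summit nearby. With lists of equal size the H3K27ac summits numbered 44 in MEF WT and, for MMTV-CAF, 65 in WT and 66 in SG.

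Of the recomputed values of the called ratios, 7 turned direction. By bases covered, Smad7 in wound-healing SG was at 1.31. Divided by the median ratio, the MEF KI scores of Smad2 (1.12), Smad5 (1.31), Smad6 (1.36), Smad7 (1.53) and Skil (1.07) exceeded 1. By number of summits the same Smad7 ratio was at 1.08, so it enters the 7 more than once.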
